A study of Mus musculus with 4 samples.

Results

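The 10 immunoglobulin constant genes Ighm, Ighd, Ighg3, Ighg1, Ighg2b, Ighg2c, Igha, Igkc, Iglc1 and Iglc2 were described in plasma cells, B cells and other cells of mouse gonadal white adipose tissue. They were chosen by gene symbol among 31054 features, and each symbol matched a row. Cells came from the stromal vascular fraction, the non-adipocyte part of the tissue, of male 18-month-old p16-CreERT2/R26-LSL-tdTomato mice given tamoxifen. In these animals Cre is driven by the p16 (Cdkn2a) promoter and turns on the red protein tdTomato, so Tom+ marks cells in which that promoter was active at the time of tamoxifen. All 4 groups share this genotype, and they differ in the sort, on CD45, the leukocyte surface protein, and on Tom. The number of mice behind each library is not given in the sources used here, and with a single library for every sort no test between groups was made. Values for the 4 libraries follow in 1 order throughout, first the CD45- sort as Tom+ then Tom-, next the CD45+ sort as Tom+ then Tom-, and intervals are 95% intervals that cover counting error only.

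An antibody is built of heavy and light chains, and the constant gene joined to the variable part of the heavy chain sets its isotype. Naive B cells make IgM and IgD by splicing from the same locus, and class switching later replaces them with an Ighg gene or Igha, for IgG or IgA. Each B cell uses a light chain from the kappa locus (Igkc) or from a lambda locus (Iglc1, Iglc2), and mouse antibodies are mostly kappa. Plasma cells are B-lineage cells that secrete antibody, and adipose tissue also houses B-1 cells, which secrete natural IgM without needing class switching.

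The heavy chain genes lie on chromosome 12 of GRCm38 (mm10), all on the minus strand, from Ighm (chr12:113418558-113422730) and Ighd (chr12:113406604-113416324) through Ighg3, Ighg1, Ighg2b and Ighg2c to Igha (chr12:113254830-113260236). Igkc lies on chromosome 6 (chr6:70726435-70726966, plus strand), and Iglc1 (chr16:19061618-19062071) and Iglc2 (chr16:19198396-19200351) lie on chromosome 16, minus strand. All are annotated as immunoglobulin constant genes. The sequences below are the ends of the coding regions in GENCODE vM21 transcripts, shown because the counts rest on telling related genes apart. The first pair are the last exonic coding bases of the secreted forms of Ighm (chr12:113420870-113420928) and Igha (chr12:113258771-113258829), with the last-but-one codon in capitals. It encodes the cysteine through which IgM and IgA polymerise with the J chain:
Ighm: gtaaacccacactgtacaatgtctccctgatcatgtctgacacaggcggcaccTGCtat
Igha: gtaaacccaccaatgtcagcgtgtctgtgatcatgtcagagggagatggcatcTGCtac

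The IgG genes lack that codon. Their last 60 coding bases follow for Ighg2c (chr12:113287392-113287451), Ighg2b (chr12:113306392-113306451), Ighg1 (chr12:113328979-113329038) and Ighg3 (chr12:113359668-113359727), with the bases that differ from Ighg2c in capitals. They number 14, 16 and 20:
Ighg2c: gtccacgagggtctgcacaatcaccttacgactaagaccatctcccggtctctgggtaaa
Ighg2b: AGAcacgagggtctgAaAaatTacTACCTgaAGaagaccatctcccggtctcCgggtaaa
Ighg1: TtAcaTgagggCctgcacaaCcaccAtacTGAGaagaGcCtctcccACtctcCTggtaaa
Ighg3: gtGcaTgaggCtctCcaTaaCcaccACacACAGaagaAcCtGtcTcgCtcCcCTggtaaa

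Of the lambda genes, Iglc2 and Iglc3 are near-identical, and Iglc1 is further from both. The last 60 coding bases of Iglc2 (chr16:19198539-19198598), Iglc3 (chr16:19065368-19065427) and Iglc1 (chr16:19061755-19061814) follow, with the bases that differ from Iglc2 in capitals. They number 1 for Iglc3, which is not among the 10 genes, and 13 for Iglc1:
Iglc2: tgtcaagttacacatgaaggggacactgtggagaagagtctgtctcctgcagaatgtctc
Iglc3: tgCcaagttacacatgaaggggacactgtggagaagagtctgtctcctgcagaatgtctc
Iglc1: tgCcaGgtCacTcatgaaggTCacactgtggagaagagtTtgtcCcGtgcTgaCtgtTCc

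No stretch of 90 bases in a transcript of the 10 genes occurred in a transcript of another constant gene. Iglc2 and Iglc3 shared 289 of 300 coding bases, so how reads were split between these genes is uncertain. Counts are of transcript 3' ends per gene and were not divided by length. They sum the secreted and membrane forms of each heavy chain.

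After filtering, 3886, 3674, 1927 and 4391 cells were kept, with median depths of 18331 to 19516 UMIs, the molecular tags that let each captured transcript be counted a single time. The libraries held 64083756 to 139397501 UMIs. The CD45 labels did not separate leukocytes: Ptprc, which encodes CD45, stood at 217, 157, 223 and 188 CPM (a gene's UMIs scaled to the same total in every library or class), and cells that met a leukocyte marker gate made up 62.3%, 24.7%, 61.1% and 30.5%. The Tom labels did separate tdTomato, at 713, 15.8, 714 and 18.7 CPM. Because the CD45 labels did not separate leukocytes, the libraries are named by their labels only. Barcodes were shared between libraries, most between the pair labelled Tom- with 4394, but at most 16 barcodes were kept cells in both libraries of a pair.

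Plasma cells, gated on at least 10 UMIs of Mzb1 and 2 of Derl3 (both genes of the secretory apparatus and neither a constant gene), numbered 948, 40, 482 and 63. They made up 24.4% (23.1 to 25.8), 1.09% (0.779 to 1.48), 25.01% (23.1 to 27.0) and 1.43% (1.10 to 1.83) of kept cells. Their identity was checked on other genes. Tnfrsf17, the plasma cell survival receptor BCMA, stood at 70.6, 87.2, 68.6 and 76.0 CPM in plasma cells and at most 10.0 CPM in B cells. Cd22, a receptor that plasma cells lose, stood at 1.99, 1.28, 3.01 and 0.721 CPM in plasma cells and at 120, 224, 153 and 185 CPM in B cells. Of the plasma cells, 125, 1, 85 and 1 also met a macrophage gate.

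Almost every plasma cell was of the IgM isotype. A cell was given the isotype whose gene held over 50% of its heavy chain constant UMIs. IgM was called in 942 of 948 cells (99.4%, 98.6 to 99.8), 40 of 40 (100%, 91.2 to 100), 479 of 482 (99.4%, 98.2 to 99.9) and 63 of 63 (100%, 94.3 to 100). The 0 switched cells of the libraries labelled Tom- allow shares of up to 7.50% and 4.76% by the limit of 3 counts, which is one-sided and so tighter than the interval above, and these include the 0.633% and 0.622% of those labelled Tom+. A difference between Tom+ and Tom- in switched share was thus not detectable at this number of cells. With cells that the doublet step had removed put back, IgM was called in 99.4%, 98.3%, 99.4% and 96.9%.

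The 9 switched plasma cells were all in the libraries labelled Tom+, and each used kappa. In the library labelled CD45- Tom+ there were 3 IgA cells, 2 IgG2c cells and 1 IgG2b cell. The IgA cells held 3847, 2024 and 7713 Igha UMIs beside 187, 67 and 157 of Ighm. The IgG2c cells held 12923 and 6170 Ighg2c UMIs, and the former also held 7430 of Ighm, in a cell of 89575 UMIs. The library labelled CD45+ Tom+ had 2 IgA cells, with 3509 and 1400 Igha UMIs, and 1 IgG1 cell, with 5551 Ighg1 UMIs. Both of those IgA cells led with the variable genes Ighv14-3 and Igkv12-98. Jchain, which encodes the J chain that joins IgM and IgA, stood at 299 to 2888 UMIs in the 5 IgA cells and at 88 to 282 in the 4 IgG cells. Its median in IgM cells was 950.5, 671, 1068 and 828.

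The doublet step bore on this count. It had marked 104 of 1052, 18 of 58, 24 of 506 and 33 of 96 cells of the plasma gate (9.89%, 31.0%, 4.74% and 34.4%). Over all cells that passed the filter it had marked 259 of 4145, 364 of 4038, 54 of 1981 and 427 of 4818. The share to remove was set by the number of deposited barcodes (7815, 11255, 3429 and 11068). It was therefore higher in the libraries labelled Tom- by construction, and how far this bore on the plasma gate was not tested. Among the marked cells of the libraries labelled Tom- were 3 IgG1 cells and 1 IgG2c cell. The IgG1 cell of the library labelled CD45- Tom- held 8740 Ighg1 and 9 Ighm UMIs, and those of the library labelled CD45+ Tom- held 4809 and 10825 Ighg1 beside 15 and 11 Ighm UMIs. None of the marked cells of the libraries labelled Tom+ was switched. Whether these cells were doublets was not tested. Their Ighm counts of 9 to 15 UMIs were those of stromal cells of the same libraries, given below.

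**Figure D1:**
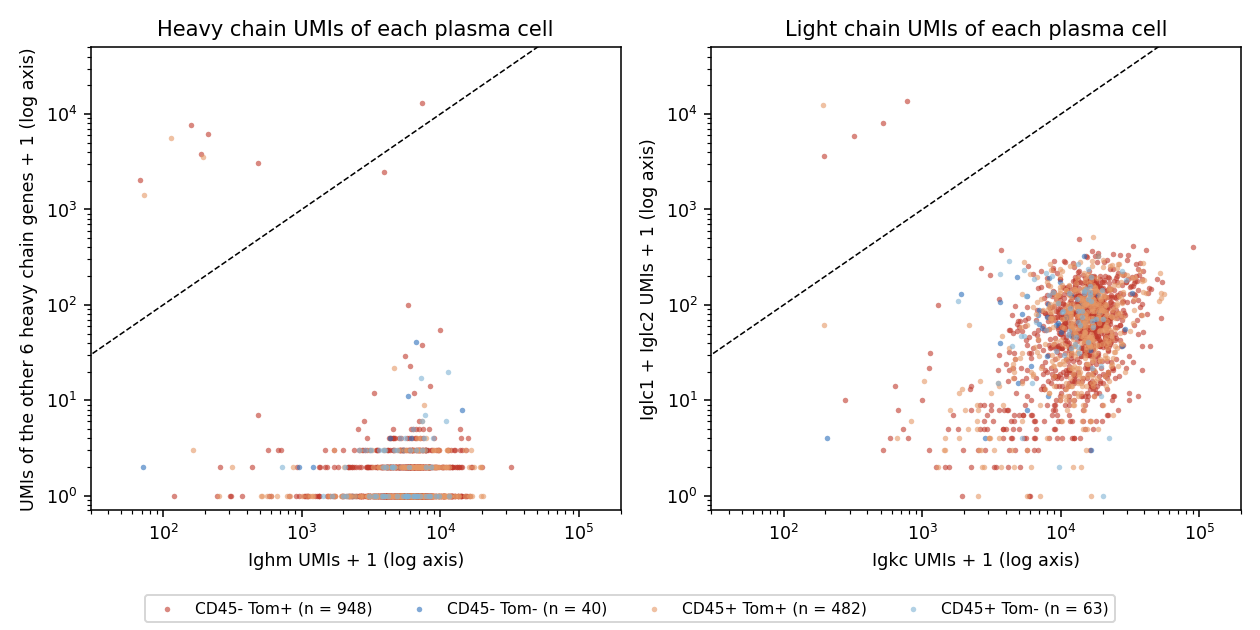
Each point is 1 plasma cell, coloured by library. The left panel plots Ighm UMIs against the summed UMIs of the other 6 heavy chain genes and the right panel plots Igkc against Iglc1 plus Iglc2, each as UMIs + 1 on log axes with a dashed line of equality. Of all cells, 9 lie above the line on the left and 5 on the right.

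Light chain use was as uniform. Kappa held over 50% of light chain UMIs in 944 of 948 cells (99.6%, 98.9 to 99.9), 40 of 40, 481 of 482 (99.8%, 98.8 to 100.0) and 63 of 63. The 5 lambda cells were all IgM. In the 4 of the library labelled CD45- Tom+, Iglc2 led with 8037, 3157, 13788 and 4995 UMIs beside 518, 193, 769 and 322 of Igkc. In the lambda cell of the library labelled CD45+ Tom+, Iglc1 led with 12431 UMIs beside 190 of Igkc. Of the 5, 2 led with the variable gene Ighv8-5, and both of these held over 500 Iglc1 UMIs as well. The plot of heavy and light chain UMIs per plasma cell shows these cells apart from the rest.

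Heavy and light chain genes differed in how cleanly they were excluded. In the median plasma cell the heavy chain genes other than the leading gene summed to 0, 1, 0 and 0 UMIs. Lambda UMIs in IgM kappa cells had medians of 60, 71.5, 57 and 84, which were 0.391%, 0.686%, 0.385% and 0.712% of light chain UMIs. At least 100 lambda UMIs were found in 26.1%, 30.0%, 27.6% and 42.9% of IgM kappa cells. So low lambda counts were common in kappa cells, whereas a heavy chain gene besides the leading gene was nearly absent. Whether these lambda counts came from the cells themselves was not tested. The median stromal cell of every library held 0 Iglc1 UMIs and at most 1 Iglc2 UMI.

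The same pair of variable genes led in most plasma cells of every library. Among plasma cells with a leading Ighv gene, Ighv11-2 led in 85.5%, 73.5%, 88.2% and 68.9%. Igkv14-126 led in 85.6%, 66.7%, 89.5% and 63.5% of those with a leading Igkv gene. Both led together in 84.8%, 67.6%, 88.4% and 65.6% of the 877, 34, 447 and 61 cells with both. Each share was lower in Tom- than in Tom+ of the same pair, over few Tom- cells, and this difference was not tested. Ighv11 and Igkv14-126 are known as the pair of natural IgM against phosphatidylcholine that B-1 cells make.

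The 10 genes took a large part of a plasma cell's UMIs. The median Ighm count per plasma cell was 6040 (5th to 95th percentile 1953 to 11731), 5075 (1185 to 8284), 6215 (1910 to 11131) and 5688 (1983 to 9718). The median Igkc count was 14798.5, 8686, 14552.5 and 13081. These ranges overlapped widely between libraries. Heavy chain genes took a median of 13.5%, 14.9%, 13.4% and 12.5% of a cell's UMIs and light chain genes 34.1%, 26.9%, 32.6% and 28.7%. Summed over plasma cells, the 10 genes held 45.7%, 41.5%, 44.6% and 41.4% of UMIs. Cells with more Ighm also had more Igkc, with Pearson's r of 0.652, 0.434, 0.702 and 0.736 for log10(UMIs + 1) over 948, 40, 482 and 63 cells. These points share depth within each cell, and the value is a description. Plasma cells that also met the macrophage gate had lower member shares, with medians of 37.4% against 50.4% without that gate in the library labelled CD45- Tom+ and 37.2% against 49.3% in that labelled CD45+ Tom+. The macrophage gene C1qa had medians of 55 and 56 UMIs in these cells against 1 and 0 in the others, and what this did to the member shares was not tested further.

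Just inside the plasma gate, at 10 to 14 Mzb1 and 2 or 3 Derl3 UMIs, lay 30, 0, 16 and 0 cells, and their median member share was 51.1% and 45.8% in the libraries labelled Tom+. Just outside it, at 5 to 9 Mzb1 UMIs, lay 142, 1, 52 and 4 cells with medians of 15.0%, 4.14%, 37.4% and 5.29%. The gate therefore left out some antibody-rich cells: 210, 7, 139 and 9 cells outside it had at least 20% of their UMIs in the 10 genes.

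Comparing Tom+ with Tom- addressed whether plasma cells sorted with the p16 reporter differ in antibody genes from those without it. A gene was compared where its mean was at least 50 CPM and called where it differed at least 2-fold. In plasma cells 6 of the 10 genes were compared in each pair. Of these, 2 were at least 2-fold higher in the pair labelled CD45-, where 2.62% of 1261 genes were, and 2 in the pair labelled CD45+, where 3.16% of 1297 were. None was at least 2-fold lower, where 0.238% and 0.925% of all genes were. The genes past 2-fold were Ighg2c and Igha in the former pair and Ighg1 and Igha in the latter. Each was under 10 CPM in Tom- and passed the limit on the mean only through Tom+, so it had to differ and the counts carry no weight. Genes low in both libraries, such as Ighg3 and Ighd, were left out by the same limit, and with doublets kept 1 and 2 genes were at least 2-fold lower. In IgM kappa cells alone, an alternative chosen after seeing the data that removes the switched cells by construction, 4 genes were compared in each pair, Ighm, Igkc, Iglc1 and Iglc2, and 0 of them passed 2-fold.

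The main genes, Ighm and Igkc, were close to equal. Ighm stood at 129773, 131766, 132364 and 127216 CPM in plasma cells. Its log2 ratio of Tom+ over Tom- was -0.02 in the pair labelled CD45- and 0.06 in the pair labelled CD45+. Igkc stood at 324082, 281139, 310956 and 284801 CPM, with log2 ratios of 0.21 and 0.13. The median log2 ratio over all genes compared was -0.11 and -0.13, so the values of Ighm and Igkc lay somewhat above that of the median gene in both pairs.

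The switched genes, by contrast, rested on the few switched cells. Igha stood at 364, 2.56, 213 and 6.12 CPM in plasma cells, with log2 ratios of 7.15 (5.79 to 9.02) and 5.12 (4.44 to 5.90). The cell with most Igha held 47.4% of the UMIs in the library labelled CD45- Tom+ and 70.9% in that labelled CD45+ Tom+. Without it Igha stood at 191 and 62.1 CPM, still above Tom-. Ighg2c stood at 431, 1.28, 1.16 and 1.80 CPM, with 67.1% of the first value in 1 cell and 142 CPM without it. Ighg1 stood at 1.01, 8.33, 240 and 5.04 CPM, with 99.3% of the third value in 1 cell and 1.68 CPM without it. Ighg2b, at 74.5, 1.92, 0.430 and 1.44 CPM, had 92.7% of its highest value in 1 cell and 5.42 CPM without it. With doublets kept, the log2 ratio of Ighg1 in the pair labelled CD45+ turned to -3.94. These ratios therefore describe a few cells and not plasma cells at large.

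The lambda genes, which the kappa cells also held, had ratios of opposite sign in the pairs. Iglc1 stood at 544, 815, 1046 and 760 CPM, with log2 ratios of -0.58 (-0.66 to -0.50) and 0.46 (0.40 to 0.53). Iglc2 stood at 1742, 1393, 1024 and 1432 CPM, with log2 ratios of 0.32 (0.26 to 0.38) and -0.48 (-0.53 to -0.44). The lambda cells weighed on both: 1 cell held 51.1% of Iglc1 in the library labelled CD45+ Tom+, which stood at 512 CPM without it, and 1 cell held 17.7% of Iglc2 in that labelled CD45- Tom+. In IgM kappa cells alone the ratios were negative in both pairs, at -0.67 and -0.57 for Iglc1 and -0.38 and -0.49 for Iglc2. Ighg3 and Ighd were at 1.46 to 32.0 CPM in plasma cells of every library and were not compared. Cdkn2a, whose promoter drives the reporter, stood at 4.43, 10.9, 4.73 and 8.65 CPM in plasma cells, and tdTomato at 625, 27.6, 646 and 31.0 CPM.

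**Figure D2:**
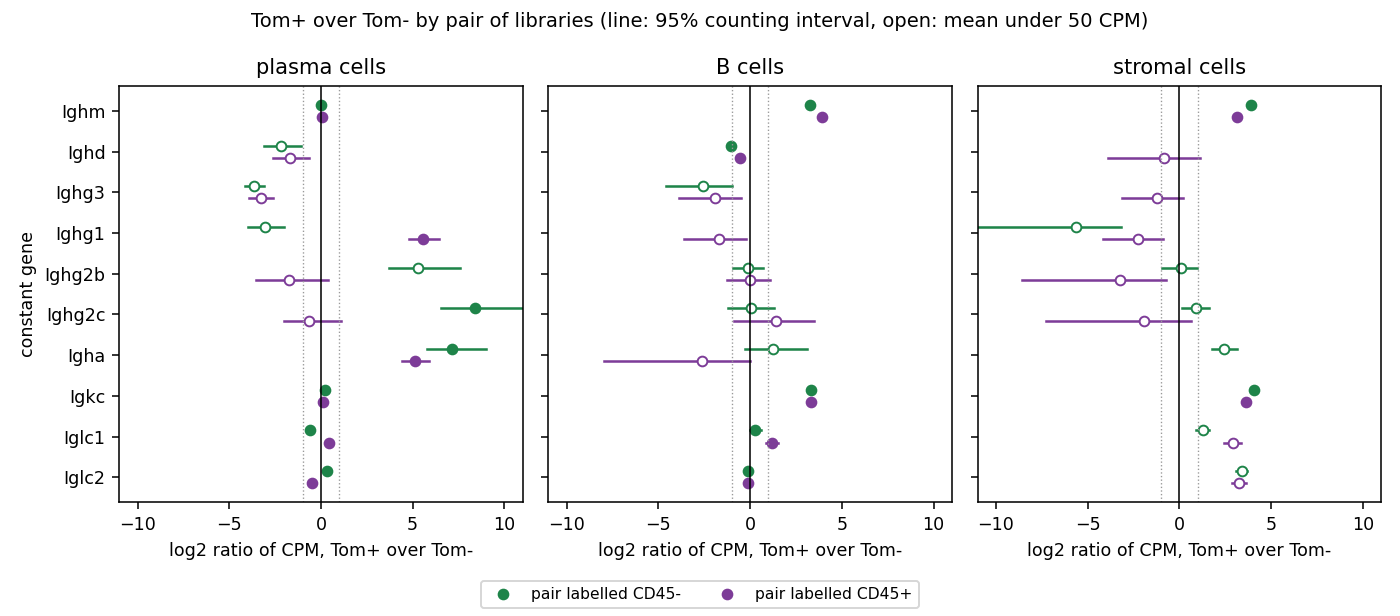
The log2 ratio of CPM, Tom+ over Tom-, is plotted for each constant gene in plasma, B and stromal cells, in green for the pair labelled CD45- and purple for that labelled CD45+, with 95% counting intervals as lines, open points for a mean under 50 CPM and dotted lines at 2-fold; genes at 0 in a library are not drawn. In plasma cells Ighm and Igkc lie between -0.02 and 0.21 while Igha lies at 7.15 and 5.12, and in stromal cells Ighm and Igkc lie between 3.16 and 4.09.

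In stromal cells, which make no antibody, Ighm and Igkc were the constant genes with most counts. Stromal cells were gated on Dcn, Col1a2 and Pdgfra with no Ptprc UMI and under 3 Mzb1 UMIs, a limit that leaves out cells with more plasma cell RNA, and numbered 186, 1330, 106 and 1536. The 10 genes summed to 18425 CPM (18301 to 18550), 1179 (1167 to 1191), 10786 (10667 to 10905) and 1018 (1008 to 1028) in them. Without the Mzb1 limit, a setting chosen after seeing the data, the sums were 19577, 1226, 10627 and 1028 CPM over 264, 1333, 133 and 1538 cells. The median stromal cell held 410.5, 27, 282 and 24 member UMIs. Levels were thus far higher in the libraries labelled Tom+, which also held the larger shares of plasma cells, and the part of that share in the levels was not tested. Of the 2 genes compared in stromal cells, Ighm and Igkc, both were at least 2-fold higher in Tom+ in each pair, where 1.01% and 1.23% of all genes were, and 0 were lower, where 0.302% and 1.16% were. Ighm had log2 ratios of 3.88 and 3.16 and Igkc of 4.09 and 3.63. Levels in plasma cells were above those in stromal cells by 16.7, 251, 32.9 and 282 times for Ighm and by 30.6, 452, 46.3 and 525 times for Igkc.

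The count per cell hardly moved with depth. When stromal cells were split into 4 equal bins by depth, the median Ighm count was 121 in the shallowest and 175.5 in the deepest bin of the library labelled CD45- Tom+, while median depth rose from 10494 to 40152 UMIs. In the other libraries the medians went from 11 to 13, from 96 to 115 and from 9 to 12. Ighm CPM was lower in the deepest than in the shallowest bin, at 4733 against 11733, 360 against 976, 2806 against 7798 and 325 against 767. In the library labelled CD45- Tom+ the fall was not steady, with 8358 and 10404 CPM in the bins between, and 2 of its stromal cells held at least 1000 Ighm UMIs. Across cell classes outside the B lineage it was the same. The median Ighm count lay between 77 in mast cells and 183 in mesothelial cells of the library labelled CD45- Tom+, and between 143 and 183 without mast cells, although class depths differed 6.19-fold. In the other libraries it lay between 11 and 13, 94 and 150, and 9 and 12 without mast cells, with depths that differed 7.83-, 6.11- and 7.71-fold. A CPM value of these genes outside the B lineage therefore moved with the depth of the class. Neutrophils, the shallowest class in every library, had the highest, while mast cells, also shallow, had the fewest Ighm UMIs per cell. Where these counts came from was not tested.

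**Figure D3:**
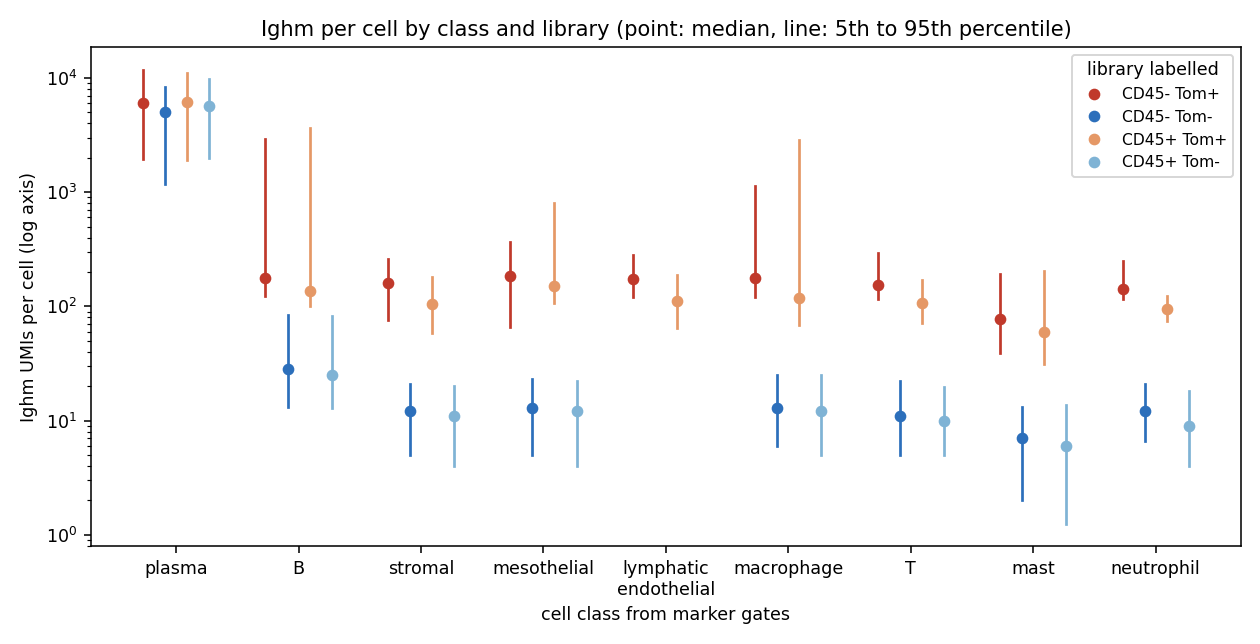
The median (point) and the 5th to 95th percentile (line) of Ighm UMIs per cell are plotted on a log axis for each cell class and library, for classes with at least 20 cells. Plasma cells sit at 5075 to 6215 in every library, while the other classes outside the B lineage sit at 59 to 183 in the libraries labelled Tom+ and at 6 to 13 in those labelled Tom-.

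**Figure D4:**
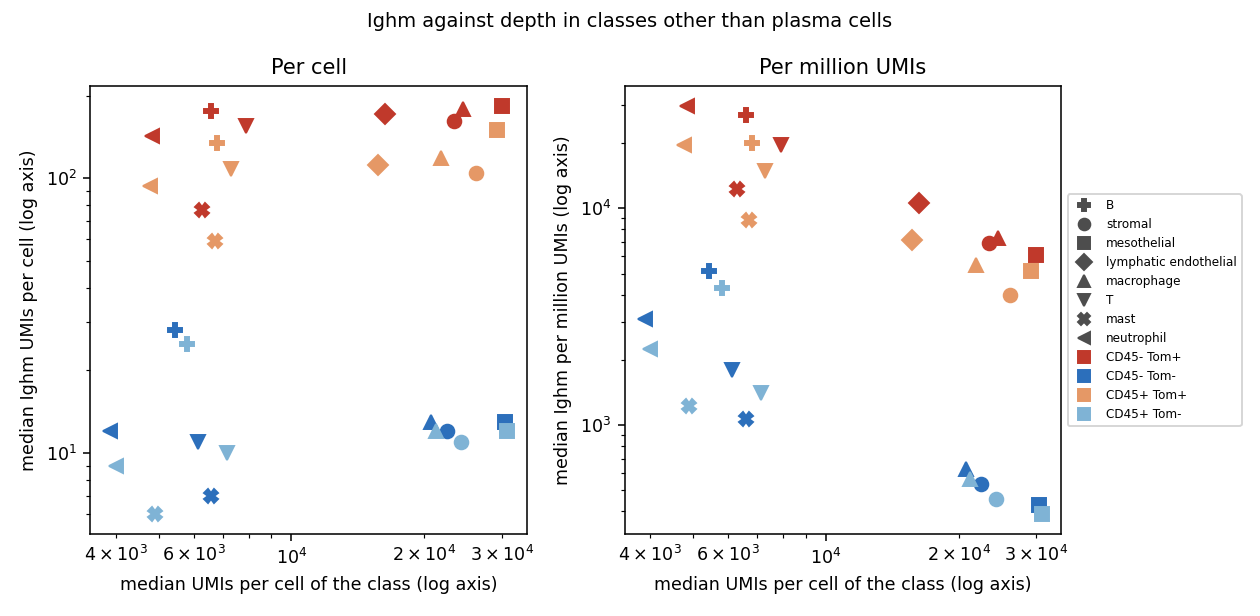
The median Ighm count per cell (left) and the same divided by depth, as CPM (right) are plotted against the median depth of each class other than plasma cells, on log axes, with a shape for each class and a colour for each library. Within a library the counts vary less than depth does, with mast cells lowest. The values in CPM tend to fall as depth rises, with mast cells below other shallow classes.

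The mix of constant genes in stromal cells differed from that in plasma cells of the same library. Igkc was 70.9%, 67.7%, 69.7% and 68.8% of member UMIs in plasma cells and 57.4%, 52.7%, 62.2% and 53.3% in stromal cells. Igkc per Ighm was 2.50, 2.13, 2.35 and 2.24 in plasma cells and 1.36, 1.18, 1.67 and 1.203 in stromal cells. In each library stromal cells thus held less Igkc for each Ighm UMI. The switched genes differed too. They were 0.191%, 3.19%, 0.0851% and 3.63% of heavy chain UMIs in stromal cells. Ighg1 alone stood at 0.218, 11.0, 1.37 and 6.64 CPM there, and in the libraries labelled Tom- its level in plasma cells was 0.760 times that in stromal cells in both. In those libraries no kept plasma cell was switched, and the 3 IgG1 cells were among the removed ones. Whether those cells were the source was not tested.

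**Figure D5:**
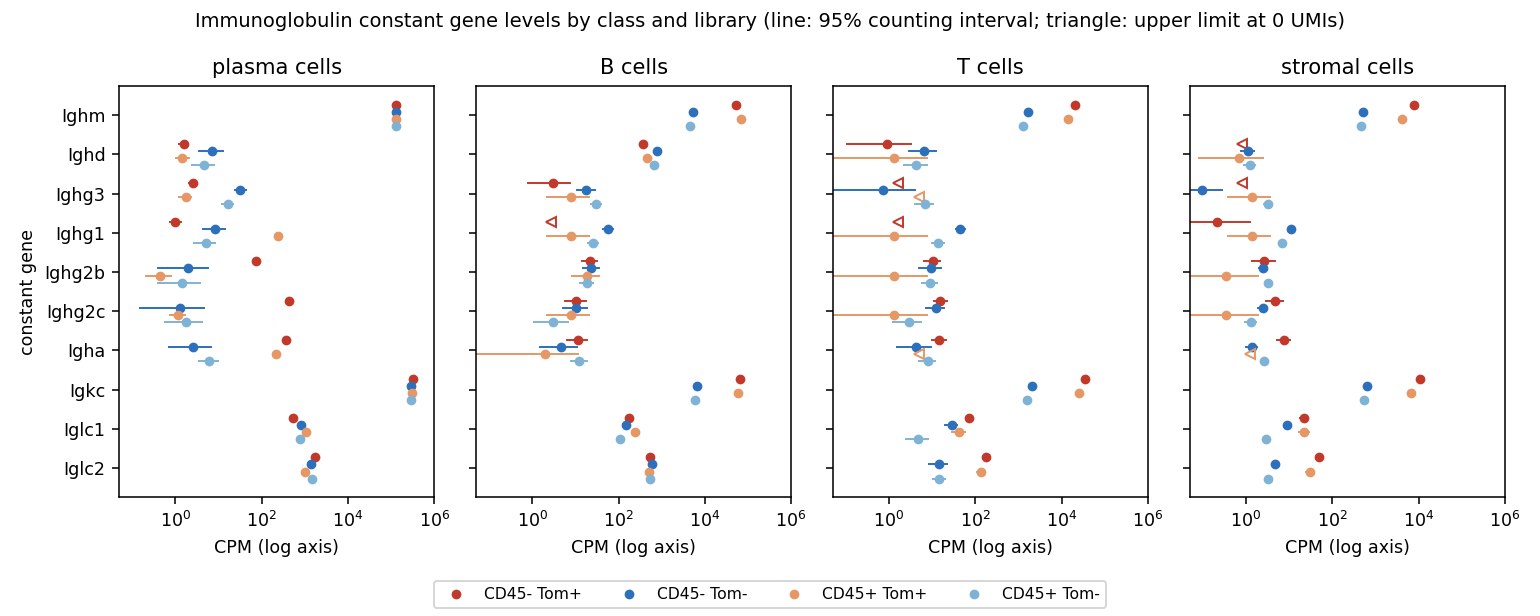
The CPM of each constant gene is plotted on a log axis in plasma, B, T and stromal cells, with 1 colour for each library, lines for 95% counting intervals and open triangles for the upper bound of that interval where a gene had 0 UMIs. Ighm and Igkc lie at 127216 to 324082 CPM in plasma cells of every library and at 451 to 10584 CPM in stromal cells, where those of the libraries labelled Tom+ lie to the right.

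B cells were gated on Cd79a, Cd79b and Ms4a1, the antigen receptor's signalling chains and CD20. They had to hold under 10 Mzb1 UMIs and meet no other gate, and numbered 150, 165, 61 and 259. Ighm and Ighd together held over 50% of heavy chain UMIs in 150 of 150 cells, 164 of 165 (99.4%, 96.7 to 100.0), 61 of 61 and 257 of 259 (99.2%, 97.2 to 99.9). The median Ighm count of B cells was 176.5, 28, 135 and 25. T cells have no immunoglobulin of their own and a similar depth. Their gate required Cd3e and Cd3g, Trac or Trbc2, and no Cd79a UMI. Their median Ighm count was 155, 11, 108 and 10. The median of B cells was thus above that of T cells by 21.5, 17, 27 and 15 UMIs. In the libraries labelled Tom+ this was small beside the spread of B cells, whose quartiles were 150.25 to 220.5 and 117 to 163. In the libraries labelled Tom+ most Ighm of a B cell was at the level of T cells, so the class called there says little about the B cell itself.

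Ighd, the IgD gene of naive B cells, set B cells apart in every library. It was found in 81.3%, 87.9%, 80.3% and 89.6% of B cells and in 0.743%, 3.98%, 1.06% and 3.69% of T cells, with median depths of 5443 to 6787 and 6132 to 7896 UMIs. Thinned to 2000 UMIs per cell, 55.3%, 67.3%, 55.7% and 68.3% of B cells held it, with T cells at 0 to 1.52%. In the libraries labelled Tom- its CPM in B cells was 124 and 155 times that in T cells. Iglc2, the lambda gene with most counts in B cells, behaved alike: it stood at 542, 583, 494 and 540 CPM in B cells and at 177, 14.1, 131 and 14.1 CPM in T cells. At least 5 lambda UMIs were found in 50.0%, 40.0%, 37.7% and 36.3% of B cells and in 8.55%, 0%, 3.19% and 0% of T cells. Lambda led over kappa in 0, 3, 0 and 4 B cells. In the libraries labelled Tom+ the median T cell held 266 and 192.5 Igkc UMIs and the median B cell 281 and 233, so a lambda B cell could hardly be called there and the 0 says nothing about lambda use.

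By the isotype call used above, 0, 0, 0 and 1 B cells were switched. A separate count took cells with at least 5 UMIs of an Ighg gene or Igha, which need not be switched. It found 2 (1.33%), 5 (3.03%), 1 (1.64%) and 4 (1.54%) B cells, against 0, 1, 0 and 0 T cells. None of these B cells held 5 Igha UMIs. By gene, Ighg1, Ighg2b and Ighg3 reached 5 UMIs, and Ighg2c did not.

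In B cells 5 of the 10 genes were compared between Tom+ and Tom-. In the pair labelled CD45-, 2 were at least 2-fold higher, against 4.56% of 2521 genes, and 1 was lower, against 1.59%. In the pair labelled CD45+, 3 were higher, against 2.04% of 2545 genes, and 0 lower, against 2.55%. Ighm was higher by 3.28 and 3.93 on the log2 scale and Igkc by 3.33 and 3.31, at 52333 against 5369 and 68275 against 4489 CPM for Ighm. T and stromal cells of the same libraries moved the same way. Ighd went the other way, at 376 against 785 and 452 against 658 CPM, with log2 ratios of -1.06 (-1.23 to -0.90) and -0.54 (-0.75 to -0.34). Iglc2 lay near equality at -0.10 and -0.13. Iglc1 was the remaining gene past 2-fold in the pair labelled CD45+, at 245 against 108 CPM, with 60.7% of the former in 1 cell.

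In the libraries labelled Tom+, 12 and 7 cells of the B gate held at least 1000 Ighm UMIs, against 0 and 0 in those labelled Tom-. Without them, a setting chosen after seeing the data, Ighm stood at 23692 and 17104 CPM and its log2 ratios were 2.14 and 1.93. Those of Igkc were 2.57 and 2.36. Ighd then lay at -0.81 and -0.32, under 2-fold in both pairs, so its call in the pair labelled CD45- rested on these cells. Ighm and Igkc kept theirs.

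Over all kept cells the 10 genes took 24.3%, 1.11%, 24.7% and 1.51% of UMIs, and plasma cells held 88.0%, 78.0%, 88.3% and 83.6% of these. All 6 genes compared were at least 2-fold higher in Tom+ in each pair, where 3.29% and 2.97% of all genes were, and 0 were lower, where 20.2% and 18.7% were. All but Ighm, Igkc and, in the pair labelled CD45+, Iglc2 were under 50 CPM in Tom- and passed the limit on the mean only through Tom+. Such sums alone do not tell more plasma cells from more antibody RNA per cell. Plasma cells were 24.4% and 25.01% of kept cells in the libraries labelled Tom+, against 1.09% and 1.43% in those labelled Tom-. Within plasma cells the log2 ratios of Tom+ over Tom- were -0.02 and 0.06 for Ighm and 0.21 and 0.13 for Igkc. The part of each in the sums was not tested.

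Other genes of antibody production were read from lists. In plasma cells, all 15 genes of secretion by the B lineage (Jchain, Xbp1, Prdm1, Irf4, Sdc1, Tnfrsf17, Txndc5, Pou2af1, Fkbp11, Sec11c, Hsp90b1, Ell2, Mzb1, Derl3 and Edem1) were compared, and 0 passed 2-fold in either pair. Their median log2 ratio was -0.31 and -0.22, beside -0.11 and -0.13 over all genes. Mzb1 and Derl3 also set the plasma gate, and the median over the other 13 genes was -0.31 and -0.16. Xbp1, the transcription factor of the secretory programme, stood at 1192, 1327, 1176 and 1290 CPM, and Jchain at 23855, 21685, 24986 and 20384 CPM. Of 15 B cell receptor genes 5 were compared, of 8 class switch genes 1 and of 6 B-1-associated genes 1, and 0 passed 2-fold in either pair. Of 10 Fc and polymeric immunoglobulin receptor genes only Fcer1g, the signalling chain of Fc receptors in myeloid cells, was compared. It was higher by 1.77 and 1.84 on the log2 scale, at 129 against 37.8 and 156 against 43.6 CPM, and passed the limit on the mean only through Tom+. C1qa moved with it, at 189 against 21.2 and 225 against 12.2 CPM in plasma cells, as did the cells that also met the macrophage gate. In B cells, 5 of 10 and 6 of 9 compared secretory genes were higher and 0 lower, where 4.56% and 2.04% of all genes were higher and 1.59% and 2.55% lower. Genes of this list were higher in T cells of the same libraries too, with Jchain at 3820 against 278 and 2576 against 182 CPM and Mzb1 at 239 against 19.7 and 171 against 12.0 CPM. Of the 15 B cell receptor genes 0 were higher and 2 and 1 lower.

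The genes whose log-scale pattern over 34 points, each a class in a library, was most like that of Ighm were Jchain (r = 0.983), Mzb1 (0.960) and Cacna1s (0.937), among 10445 genes. For Igkc they were Jchain (0.990), Mzb1 (0.968) and Oosp1 (0.957). For Igha the closest was Hmces at 0.546 and for the sum of the Ighg genes Napsa at 0.650, so the switched genes had no close match. The points share libraries and the gate on Mzb1, and these values are descriptions.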

How the data were processed

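The 4 libraries were made with the 10x Genomics Chromium 3' v3.1 kit. Cell Ranger 3.0.2 with the mm10 build was run by the authors, who deposited raw UMI counts per gene and barcode. From these counts, barcodes between 1000 and 7000 genes with mitochondrial UMIs below 8% were kept, the limits of the study. The cells with the highest Scrublet scores (scanpy 1.11.5), 0.8% per 1000 barcodes, were removed as doublets. Cell classes came from marker gates, and a cell with 2 gates other than plasma entered no class. Shares carry Clopper-Pearson intervals, CPM exact Poisson intervals, and log2 ratios of summed counts conditional exact intervals. A count of 0 was given the limit of 3 counts. With 1 library per group no p-value was computed. Data were simulated for plasma cells of the pair labelled CD45- (1261 genes, 200 changed). Of the changed genes 100% were recovered, and 94.9% of intervals held the true ratio. The counts were drawn from the Poisson model that the intervals assume, and the changes were larger than the 2-fold limit. Both values thus followed from the setup, and they say nothing about variation between cells. The constant genes, gates and lists were chosen with earlier results of these data known. The genes named are the 10 constant genes, the list genes and the 3 genes most like each pattern. A planned comparison of IgA or IgG with IgM plasma cells needed 20 cells of each and was not made. Of the list genes and alternatives, 2 genes and the values that need them are not reported here.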

Additional observations from a re-analysis of the deposited data

Results flagged for a closer look

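In plasma cells 4 constant genes had log2 ratios of Tom+ over Tom- with opposite signs in the pairs labelled CD45- and CD45+, and the difference between pairs was not tested. They were -0.022 and 0.057 for Ighm, -3.05 and 5.57 for Ighg1, -0.58 and 0.46 for Iglc1, and 0.32 and -0.48 for Iglc2. In the pair labelled CD45+ the signs of Ighg1 and Iglc1 rested on 1 cell each: without it Ighg1 stood at 1.68 CPM in Tom+ against 5.04 in Tom-, and Iglc1 at 512 against 760.

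Barcodes with under 500 genes, which entered no comparison, held the 10 genes at 195717, 72577, 195367 and 94365 CPM in the 4 libraries in the order used above. These were 126, 3762, 43 and 2949 barcodes. In the libraries labelled Tom-, 276 and 423 of them carried the barcode of a kept plasma cell of another library, and in these the 10 genes stood at 438527 and 445347 CPM, with Igkc at 74.9% and 75.2% of member UMIs. The 1033 and 1106 that carried the barcode of another kept cell of another library stood at 5935 and 8424 CPM. The 2453 and 1420 with no such match stood at 48263 and 40831 CPM. In the libraries labelled Tom+, 0 of these barcodes matched a kept cell of another library. Of the kept plasma cells, 312, 21, 123 and 22 had a barcode that was also present in another library, and for 1, 0, 0 and 0 it was a kept cell there. How the barcodes came to be shared was not tested. In the library labelled CD45+ Tom+, Igha was 3.66% of member UMIs in these barcodes and 0.0478% in plasma cells.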

How the results depend on the processing

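No paired analysis was possible because no result comes from a test: each sort was 1 library, with no replicate. A joint fit of both pairs, with CD45 label and Tom as terms, was not run. The IgM, kappa and unswitched shares, the stromal sum and the log2 ratios in plasma cells were recomputed under other settings. So was the share of B cells with at least 5 UMIs of a switched gene. The settings were other gates, filters, doublet handling, thinning and scaling, and not all were applied to each result. Apart from alternatives given with them, the other results were not recomputed. The IgM share of plasma cells ranged over 99.3 to 99.5%, 97.5 to 100%, 99.2 to 99.5% and 96.9 to 100%, and the kappa share over 99.5 to 99.6%, 97.5 to 100%, 99.6 to 99.8% and 97.9 to 100%. The share of unswitched B cells stayed at 100% in the libraries labelled Tom+. It ranged over 97.6 to 100% in the library labelled CD45- Tom-, with 100% under thinning, and over 98.5 to 99.2% in that labelled CD45+ Tom-. The stromal level moved beyond its counting interval. With looser quality limits it was 16547, 1166, 10394 and 990 CPM. With doublets kept it was 18139 CPM (CD45- Tom+) and 1163 (CD45- Tom-). With no Mzb1 and no Cd79a UMI it was 15669 CPM over 41 cells (CD45- Tom+), 1163 (CD45- Tom-) and 996 (CD45+ Tom-). With no limit on Mzb1 it was 19577, 1226, 10627 and 1028 CPM. As the median over cells it was 17856 CPM (CD45- Tom+), 11379 (CD45+ Tom+) and 999 (CD45+ Tom-). In plasma cells of the pair labelled CD45-, 1 constant gene was at least 2-fold lower with doublets kept and 0 were higher in IgM kappa cells. In the pair labelled CD45+, 2 were lower with looser quality limits, 1 was higher and 2 were lower with doublets kept, and 0 were higher in IgM kappa cells. There Ighg1 turned to -3.47 with looser quality limits, -3.94 with doublets kept and -1.62 in IgM kappa cells, and Igha to -1.72 in IgM kappa cells. These few cells decide the switched genes. Iglc1 ranged from -0.95 to 0.72 in the pair labelled CD45+ and Iglc2 from -0.38 to 0.57 in the pair labelled CD45-. The settings that use IgM kappa cells only, or that leave out cells of the macrophage gate or B cells with at least 1000 Ighm UMIs, or that lift the Mzb1 limit, were chosen after seeing the data. The 40 and 63 plasma cells of the libraries labelled Tom- limit any share of switched or lambda cells there.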

Other observations

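Some plasma cells held little heavy chain RNA. With a limit of 500 heavy chain UMIs, chosen after the values were seen, 8 (0.844%), 1 (2.50%), 3 (0.622%) and 0 plasma cells of the 4 libraries in the order used above fell below it. Of these, 5, 1, 2 and 0 held at least 1000 light chain UMIs. In the library labelled CD45- Tom+ a cell with 372 Ighm UMIs held 37173 of Igkc. In that labelled CD45- Tom- a cell with 70 Ighm UMIs held 14936 of Igkc. None of these cells met the macrophage gate.

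At the other end, 2 plasma cells, both of the library labelled CD45- Tom+, held at least 1000 UMIs of a heavy chain gene besides the leading gene. These were 3898 UMIs of Ighm with 2492 of Igha, and 12923 of Ighg2c with 7430 of Ighm.

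Cells of the macrophage gate outside the plasma gate that held at least 1000 Ighm UMIs numbered 42, 2, 30 and 1. Their Igkc per Ighm was 0.909, 0.240, 0.799 and 0.169, against 2.50, 2.13, 2.35 and 2.24 in plasma cells. No cell of the T gate reached 1000 Ighm UMIs in any library. That gate required no Cd79a UMI, and Cd79a stood at 294, 330, 291 and 286 CPM in plasma cells. Cells with much plasma cell RNA could thus fail the T gate, so its count cannot be set against that of the macrophage gate.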
